A study of Mus musculus with 18 samples.

Results

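The genes described here build and run the machinery of protein synthesis: ribosomal proteins of the cytosol and of the mitochondrion, initiation and elongation factors, kinases that act on them, RNA polymerase I subunits and nucleolar proteins that process ribosomal RNA. They were chosen by gene symbol from the authors' 2 deposited gene lists, which hold the probe sets with an unadjusted p of at most 0.05 for hypoxia against normoxia at P8 or at P30. Of the 5499 probe sets in either list, 97 matched, 83 of them with 1 gene symbol and 14 with several, such as a ribosomal protein and the small nucleolar RNAs in its introns. By role they were 38 cytosolic ribosomal proteins, 16 mitochondrial ribosomal proteins and 5 tissue-specific or variant ribosomal proteins that are paralogs of a standard one. The others were 18 initiation factors, 5 elongation factors, 3 kinases, 2 small nucleolar ribonucleoproteins, 2 RNA polymerase I subunits and 8 other nucleolar proteins. Roles were given by symbol alone. The cytosolic ribosomal proteins thus include the pseudogene Rpl31-ps12, and the elongation factors include Eef2kmt, a methyltransferase named after Eef2. Eif5a and Eif5a2 were counted as initiation factors by their names only. Values per sample were deposited for 54 of the 97, and group averages only for the other 43.

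The study set hearts of mice in hypoxia at 11% oxygen against hearts of mice in normal air at postnatal day 30 (P30) and postnatal day 8 (P8), and its title concerns a delay of heart maturation by low oxygen around birth. Levels were read on Clariom S arrays, where each probe set measures 1 transcript cluster and the signal is on the log2 scale. The groups were hypoxia at P30 (5 samples, numbers 1 to 5), normoxia at P30 (4 samples, numbers 2 to 5), hypoxia at P8 (5 samples, numbers 4 to 8) and normoxia at P8 (4 samples, numbers 13, 22, 23 and 24), and values below are listed in that order of numbers. The labels give neither strain nor the start or end of the hypoxia, and they do not say whether samples are separate animals. Whether the P30 mice of the hypoxia group were still in low oxygen when sampled is therefore not known here. The spread that the p-values rest on is the one among these samples, which may be technical.

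A cytosolic ribosome joins a small and a large subunit, whose Rps and Rpl proteins are made in matched amounts and assembled on ribosomal RNA in the nucleolus. Mitochondria hold a ribosome of their own, built from Mrps and Mrpl proteins, that makes core subunits of the respiratory chain. In the heart the growth of muscle cells around birth needs many ribosomes, and maturing striated muscle swaps some components for muscle forms, such as Rpl3l for Rpl3 and Eef1a2 for Eef1a1. Transcripts of cytosolic ribosomal proteins begin with a run of pyrimidines after a first C, the terminal oligopyrimidine tract, through which growth signalling controls their translation.

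That tract is the sequence feature these transcripts are best known for, so the starts of 7 ribosomal protein genes described below are shown, with and without it, with a stretch of the Eif2ak2 promoter beside them for its interferon response element. Sequences are from RefSeq (build GRCm38.p6), 5′ to 3′ on the gene's strand. For the ribosomal protein genes a line gives 10 bases before and 20 bases from the annotated transcription start, and capitals mark the C nearest to the start, within 10 bases, that is followed by at least 4 pyrimidines, together with the pyrimidines after it. Pyrimidines that precede this C are left in lower case. For Eif2ak2 it gives 30 bases around the core of the response element in capitals, GAAA, any 2 bases and GAAA, which begins 18 bases after the annotated start.
Rps15a, chr7:118116128-118116157, minus strand: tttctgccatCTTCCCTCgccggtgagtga
Rpl38, chr11:114668570-114668599, plus strand: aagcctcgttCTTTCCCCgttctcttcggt
Rpl35, chr2:39005112-39005141, minus strand: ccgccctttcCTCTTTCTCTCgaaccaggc
Rps6, chr4:86857348-86857377, minus strand: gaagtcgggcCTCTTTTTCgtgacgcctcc
Rps7, chr12:28635934-28635963, minus strand: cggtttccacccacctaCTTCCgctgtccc
Rps25, chr9:44407704-44407733, plus strand: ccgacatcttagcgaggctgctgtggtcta
Rpl3l, chr17:24727816-24727845, plus strand: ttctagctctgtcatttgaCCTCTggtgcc
Eif2ak2, chr17:78882535-78882564, minus strand: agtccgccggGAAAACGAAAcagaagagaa
In Rps15a, Rpl38, Rpl35 and Rps6 the marked C was exactly at the annotated start, in Rps7 it was 7 bases downstream, and Rps25 had none in this window. In the muscle paralog Rpl3l it was 9 bases downstream. Among the cytosolic ribosomal proteins with 1 symbol, 21 genes had an annotated promoter, and 7 of their 25 starts (28.0%) carried a tract exactly at the start, against 2.51% of 32851 starts in the RefSeq table and 0 of 14 starts of the mitochondrial ribosomal proteins. Under the wider rule that the capitals mark, within 10 bases of the start, 12 of the 25 starts (48.0%) carried a tract. By that rule 30.7% of all starts and 35.7% of the mitochondrial ribosomal protein starts did too. These shares describe annotated starts, which can lie some bases away from the true one.

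All 18 arrays entered 1 limma fit over the 4704 probe sets with values per sample, which are a selection of the 22205 tests worked out for the array. Array medians of this table were 7.38 to 7.62 in hypoxia against 7.60 to 7.69 in normoxia at P30, and 7.87 to 8.07 in hypoxia against 7.49 to 7.69 in normoxia at P8. The median difference of all table probe sets, hypoxia minus normoxia, was therefore -0.10 at P30 and 0.18 at P8, and the members' differences are read beside these values. Of 12 markers of heart muscle cells 2 had values, Ckmt2 and Ryr2, whose mean level was 15.52 to 16.26 in hypoxia against 15.80 to 16.64 in normoxia at P30 and 12.44 to 13.73 in hypoxia against 14.48 to 15.22 in normoxia at P8. Both fell in hypoxia at P8, and of the 4 markers that the authors' deposited table lists there, 3 were lower and 1 was higher. In tissue RNA, fewer cells of a type and less RNA per cell cannot be told apart.

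At P30 the listed members lay on 1 side: the authors' deposited table gives a higher average in hypoxia for all 51 members listed there, against 53.9% of its 1524 probe sets. Their folds in the authors' deposited table ran from 1.17 to 2.58 with a median of 1.58, and 0 of the 51 had a q-value under 0.05 (0.0656% of the list), the lowest being 0.41. Values per sample were at hand for 30 of them, and all 30 had a positive difference, with a median of 0.71 and a range of 0.28 to 1.18 on the log2 scale, against 39.1% positive among all P30-listed probe sets with values and 40.3% in the value table. In the limma fit 0 of the 54 members with values passed an adjusted p of 0.05 at P30 (0.0% of the value table), with a lowest adjusted p of 0.478. At an unadjusted p under 0.05 there were 29 of 54 members, against 13.9% of the value table, but this contrast is the one that put members on the list.

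**Figure D1:**
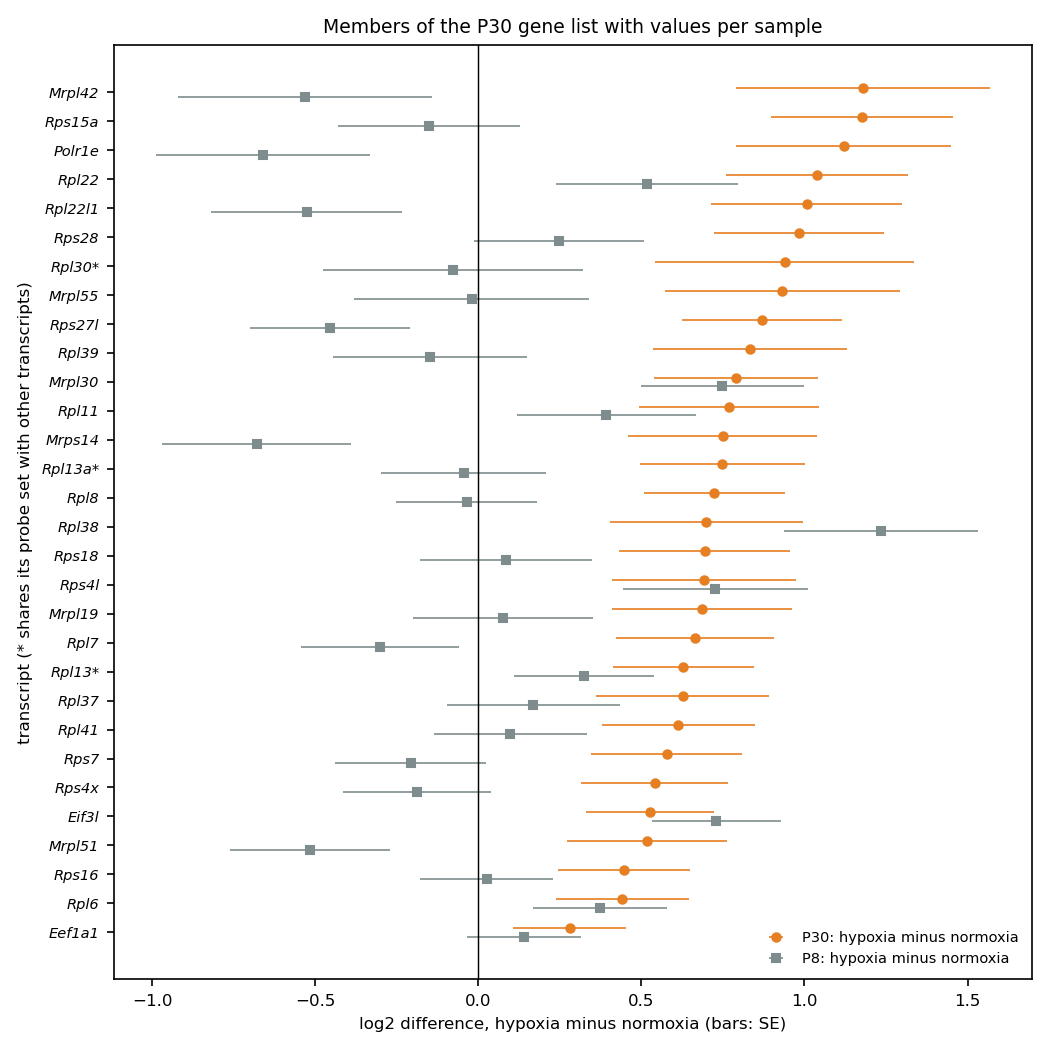
Log2 difference, hypoxia minus normoxia, of the 30 members of the P30 gene list with values per sample, 1 row each, with bars of 1 standard error from limma (n = 5 hypoxic and 4 normoxic samples at each age). The P30 differences (circles) lie between 0.28 and 1.18 and all to the right of 0, while the P8 differences of the same members (squares) lie on both sides, 15 positive and 15 negative.

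The same transcripts at P8 give a measure that the P30 list did not use. For the 23 members that were in the P30 list only, 10 differences at P8 were positive and 13 negative, with a median of -0.04 and a range of -0.66 to 0.52. In limma 0 of the 23 passed at P8 (0.0% of the 365 probe sets in that list only) and 0 had an unadjusted p under 0.05, against 3.29% of those 365, of which 49.3% were positive. Conversely, of the 24 members in the P8 list only, 15 were positive (40.3% of the probe sets in that list only) and 9 negative at P30, with a median of 0.08, and 0 had an unadjusted p under 0.05 there, against 1.57% of the 2042 probe sets in the P8 list only. Being absent from the other list lowers these counts by itself.

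At P8 the listed members went both ways. By the authors' deposited table, 34 of 54 P8-listed members were higher in hypoxia (63.0%, against 51.5% of its 4351 probe sets) and 20 were lower, and 8 had a q-value under 0.05, where 17.5% of the list did. In limma 9 of the 54 members with values passed at P8, against 20.7% of the value table, and these were 5 higher (15.2% of the value table) and 4 lower (5.57%). All 9 were among the 31 P8-listed members with values, where 42.2% of all P8-listed probe sets passed. The split depended on scaling: with arrays centred on their medians 1 member was higher and 13 lower (6.85% and 17.6% of the value table), and with quantile normalization 1 was higher and 10 lower (7.21% and 11.5%).

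Cytosolic ribosomal proteins made up 34 of the 51 members listed at P30 and 7 of the 54 listed at P8. The 34 include the pseudogene Rpl31-ps12. RefSeq names 77 protein-coding genes of this class, and 33 of them were in the P30 list, which holds 6.86% of the array's probe sets, and 7 in the P8 list, which holds 19.6%. Of all 304 genes that the rule takes, 50 were in the P30 list and 53 in the P8 list. Of the P8-listed probe sets 5 were higher and 2 lower in hypoxia. Values per sample were at hand for 20, of which 19 were positive at P30 (40.3% of the value table), with a median difference of 0.68. Of the 20, 18 were listed at P30 by this same contrast, so nothing is read from that sign. At P8 12 were positive (58.5% of the value table), with a median of 0.09. With centred arrays 20 of 20 were positive at P30 (median 0.84), and the P8 median turned negative (-0.28, with 6 of 20 positive). Centring by itself raises differences at P30 and lowers them at P8, since array medians in hypoxia lay mostly lower at P30 and higher at P8.

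Rps15a, a protein of the small subunit, had the largest P30 statistic among the cytosolic ribosomal proteins. Its signal at P30 was 12.37, 11.72, 13.13, 11.86 and 11.81 in hypoxia, against 11.39, 10.74, 10.94 and 10.94 in normoxia. The hypoxic and normoxic samples did not overlap, and hypoxic sample 3 was the highest. The difference was 1.18 ± 0.28 (SE) on the log2 scale, a 2.26-fold higher signal, with a limma adjusted p of 0.478, so it did not pass. At P8 the groups overlapped, with means of 12.42 ± 0.28 in hypoxia (SD, n = 5) and 12.58 ± 0.40 in normoxia (SD, n = 4).

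Hypoxic sample 3 stood apart at P30. Over the 18 P30-listed cytosolic ribosomal proteins with values, the median deviation from the normoxic mean was 1.32 in that sample and 0.40 to 0.66 in the other 4 hypoxic samples. Without sample 3 all 18 differences remained positive, their median was 0.59 in place of 0.70, and 10 of 18 had all hypoxic samples above the normoxic ones with and without it, a count that leaving out a hypoxic sample cannot lower. In this direction 1.98% of all probe sets with values had their groups apart, and 2.85% without sample 3, and list membership favours such separation. What set sample 3 apart was not tested.

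**Figure D2:**
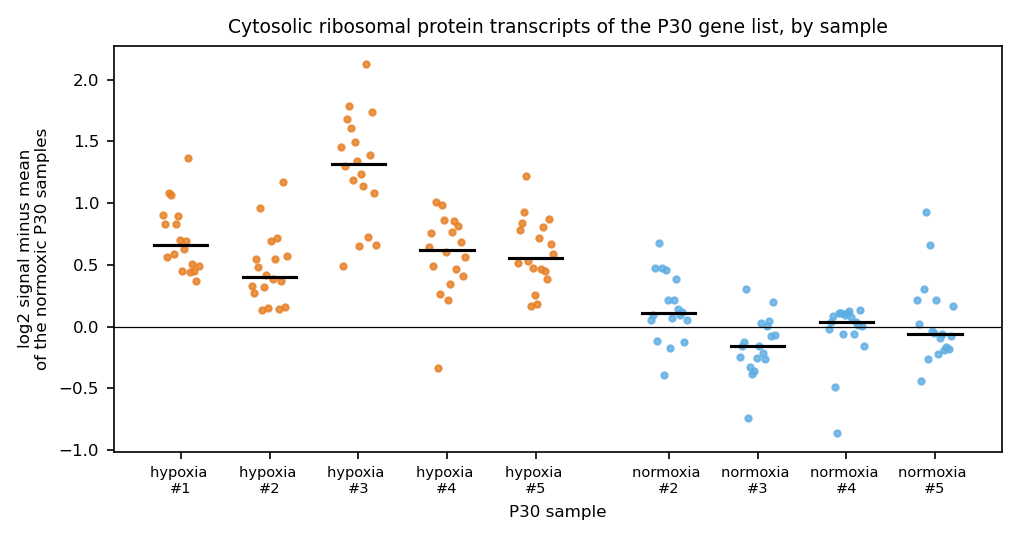
Log2 signal of the 18 P30-listed cytosolic ribosomal protein transcripts in each P30 sample, minus each transcript's mean over the normoxic P30 samples (points, 1 per transcript; bars, median of the sample). All 5 hypoxic medians lie above 0, at 0.40 to 1.32, with hypoxic sample 3 highest.

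Rpl38, a large-subunit protein known in mice for its role in the translation of Hox transcripts, was the 1 cytosolic ribosomal protein that passed at P8. Its signal at P8 was 12.96, 12.58, 13.89, 13.39 and 13.64 in hypoxia, against 12.15, 12.01, 11.71 and 12.36 in normoxia. The groups did not overlap, and the rise was 1.23 ± 0.30 (SE), or 2.35-fold, with a limma adjusted p of 0.0195. At P30 Rpl38 averaged 12.39 ± 0.44 in hypoxia (SD, n = 5) and 11.70 ± 0.50 in normoxia (SD, n = 4), with overlapping samples. The P8 call was lost under 7 of 16 alternatives, among them centred arrays and quantile normalization (adjusted p of 0.00414 to 0.108 over all 16).

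With age, 3 of the 20 cytosolic ribosomal proteins fell in hypoxia and 12 of the 20 in normoxia. In normoxia, where 16.3% of the value table fell, 0 of the 20 rose and the median P30-minus-P8 difference was -0.93. In hypoxia, where 43.9% of the value table fell and 26.3% rose, 1 of the 20 rose, with a median of -0.27, where the median of all table probe sets was -0.50. The hypoxic median turned to 0.20 with centred arrays, while the normoxic one stayed at -0.98.

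The difference between the 2 oxygen groups in this age change did not pass for any single cytosolic ribosomal protein: 0 of 20 in limma, with a lowest adjusted p of 0.103 and 8 of 20 at an unadjusted p under 0.05, against 41.5% of the value table. The count of falls in normoxia was 7 of 20 without normoxic P8 sample 22. Both age comparisons share samples with the comparisons that listed the members: a transcript low in normoxia at P30 is more easily listed as higher in hypoxia, and more easily lower at P30 than at P8 in normoxia.

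Rps15a had the lowest adjusted p of the 20 for the difference between the oxygen groups, 0.103 in limma, which did not pass. Its normoxic signal was 10.74 to 11.39 at P30, against 12.07 to 13.04 at P8, a fall of 2.97-fold (P30 minus P8: -1.57 ± 0.29 SE, limma adjusted p = 0.00179). In hypoxia the samples of both ages overlapped, at 11.72 to 13.13 at P30 and 12.04 to 12.72 at P8. Rps7, of the small subunit, fell by 1.24 ± 0.24 (SE) with age in normoxia (limma adjusted p = 0.00275), and its difference in hypoxia was -0.46 ± 0.22 (SE, adjusted p = 0.276). Rpl8, of the large subunit, fell by 1.00 ± 0.23 (SE) in normoxia (adjusted p = 0.0089), and its difference in hypoxia was -0.24 ± 0.20 (SE, adjusted p = 1). For Rps7 and Rpl8 the difference between the oxygen groups did not pass either (limma adjusted p = 0.375 and 0.33). Rps7 and Rpl8 were chosen as examples after their values were seen.

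**Figure D3:**
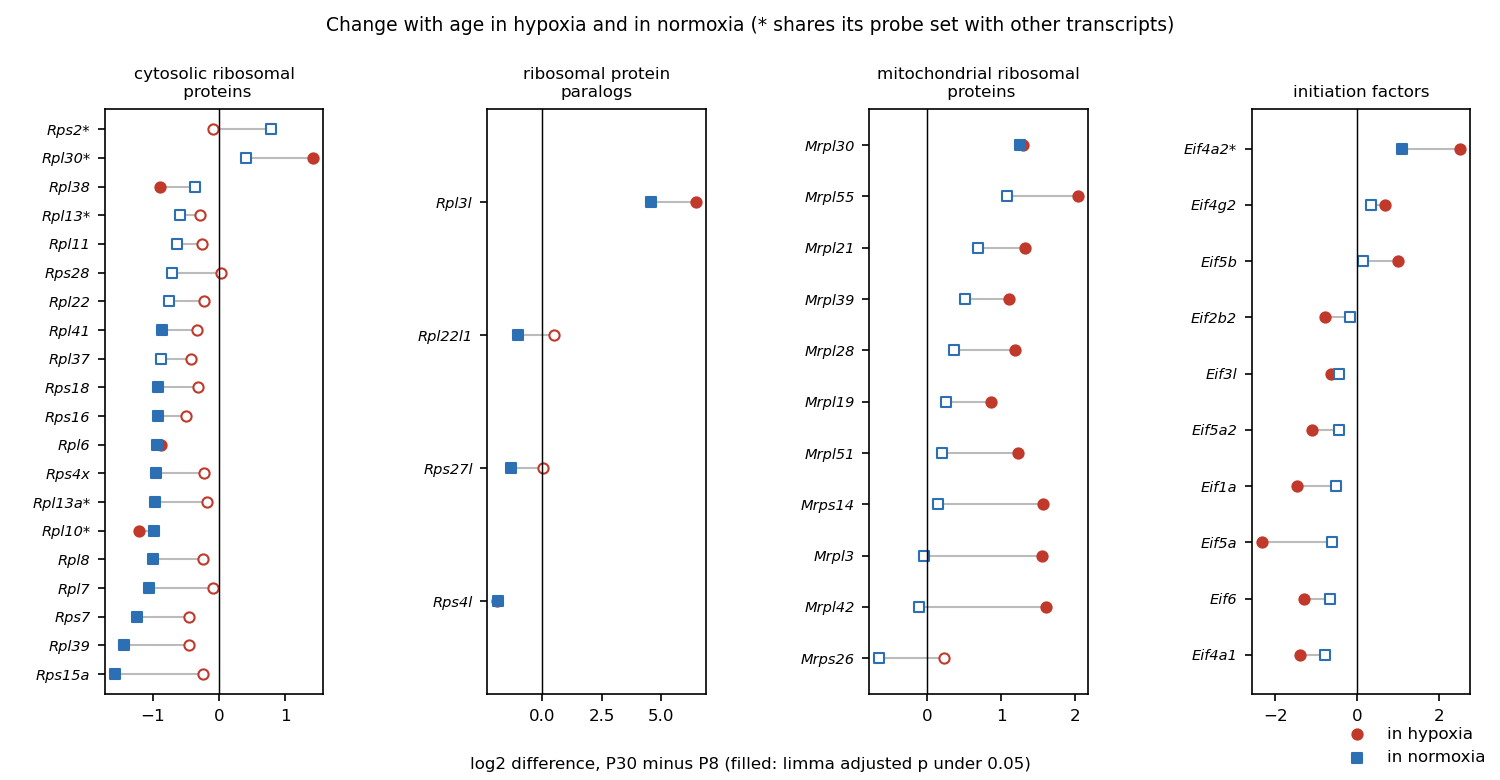
Log2 difference P30 minus P8 of each member in hypoxia (circles) and in normoxia (squares), for cytosolic ribosomal proteins, ribosomal protein paralogs, mitochondrial ribosomal proteins and initiation factors; filled symbols passed a limma adjusted p of 0.05, and the horizontal scales of the panels differ. In cytosolic ribosomal proteins 3 circles and 12 squares are filled to the left of 0, and in mitochondrial ribosomal proteins 10 circles and 1 square are filled to the right of it.

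Paralogs of the standard ribosomal proteins held the largest age change among the members. Rpl3l, which replaces Rpl3 in ribosomes of heart and skeletal muscle, had a signal at P8 of 6.76, 5.50, 5.97, 6.54 and 6.5 in hypoxia, against 6.78, 7.34, 8.86 and 8.42 in normoxia. Every hypoxic sample was below every normoxic one, though the closest pair differed by little. The fall in hypoxia at P8 was 1.60 ± 0.37 (SE) on the log2 scale, 3.02-fold, with a limma adjusted p of 0.0173. This call was lost when normoxic P8 sample 23 or 24 was left out, and when the fit held the P8 groups only.

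By P30 Rpl3l was at 13.06, 12.47, 12.80, 12.03 and 13.09 in hypoxia, against 12.46, 12.44, 11.87 and 12.96 in normoxia. These groups overlapped, with a difference of 0.26 ± 0.37 (SE, adjusted p = 1). The rise from P8 was 6.44 ± 0.35 (SE) in hypoxia, 86.6-fold (adjusted p = 3.6e-10), and 4.58 ± 0.40 (SE) in normoxia, 24.0-fold (adjusted p = 5.54e-07). The hypoxic P8 signals, at 5.50 to 6.76, lay below every array median and not far above the 25th percentile of all values, 5.48. The size of the fold in hypoxia is therefore uncertain. The effects of hypoxia at the 2 ages differed by 1.85 ± 0.53 (SE), which did not pass (adjusted p = 0.0884, and 0.0185 to 0.196 over the alternatives).

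Rpl22l1, a paralog of Rpl22, had signals at P30 of 7.77, 7.95, 8.97, 8.07 and 8.30 in hypoxia, against 7.75, 6.74, 7.54 and 6.79 in normoxia. All hypoxic samples were above the normoxic ones, the closest by a narrow margin, and at P8 the hypoxic samples (7.17 to 7.89) lay mostly below the normoxic ones (7.88 to 8.94). The difference of effects, P30 minus P8, was 1.53 ± 0.41 (SE, limma adjusted p = 0.0727). Rps27l, a paralog of Rps27 known as a target of p53, gave 9.92, 10.10, 9.92, 9.63 and 9.35 in hypoxia at P30, against 9.47, 8.63, 8.85 and 8.71 in normoxia. Only hypoxic sample 5 lay within the normoxic range, and the difference of effects was 1.32 ± 0.35 (SE, adjusted p = 0.0655). Neither passed, and both passed with centred arrays, with quantile normalization and with adjustment over the value table alone.

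In normoxia Rps27l fell 2.48-fold with age (adjusted p = 0.00283) and Rpl22l1 fell 2.04-fold (adjusted p = 0.0472). The 2 genes were listed at P30 only, from the P30 samples that these age comparisons also use. A low normoxic P30 level favours that listing and a fall in normoxia. A high hypoxic P30 level favours that listing and a smaller fall in hypoxia. The Rpl22l1 call was lost under 8 of 14 alternatives, among them leaving out normoxic P8 sample 13, 22 or 24 or normoxic P30 sample 3, 4 or 5 (adjusted p up to 0.199). In hypoxia the age differences were 0.01 ± 0.23 (SE) for Rps27l and 0.51 ± 0.28 (SE) for Rpl22l1, neither of which passed. Rps4l, a paralog of Rps4x, fell in both: its P30 samples were at 5.84 to 6.78 in hypoxia and 4.99 to 6.02 in normoxia, against P8 samples of 7.84 to 8.75 in hypoxia and 6.82 to 7.94 in normoxia. The change with age was -1.89 ± 0.27 (SE) in hypoxia and -1.86 ± 0.30 (SE) in normoxia, with adjusted p of 2.8e-05 and 0.000458.

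Of 11 mitochondrial ribosomal proteins with values, 10 had a positive difference at P30, with a median of 0.52, and 9 a negative one at P8, with a median of -0.53. These are the contrasts that listed them: all 6 listed at P30 were positive there and 7 of the 8 listed at P8 negative there, so the signs are given as a description. Only Mrps26, a protein of the small mitochondrial subunit, passed at P8: it was at 9.20, 8.52, 8.43, 8.76 and 8.46 in hypoxia, against 9.55, 9.40, 9.35 and 9.41 in normoxia. The groups did not overlap, with hypoxic sample 4 closest to normoxia, and the fall was 0.75 ± 0.21 (SE), or 1.69-fold (limma adjusted p = 0.0427). This call was lost under 11 of 16 alternatives, with adjusted p up to 0.12. With centred arrays 7 of the 11 fell at P8, where 17.6% of the value table did, and with quantile normalization 4 did, where 11.5% of it did.

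For all 11 mitochondrial ribosomal proteins the hypoxia difference was larger at P30 than at P8, by 0.04 to 1.71 and a median of 0.87, while 38.2% of the value table had a positive difference of effects. Being low in hypoxia at P8 or high at P30 favours both listing and this sign, so nothing is read from the 11. In limma 0 of these 11 differences of effect passed (background 5.17% of the value table, lowest adjusted p = 0.0902), and 6 had an unadjusted p under 0.05. With centred arrays 6 passed, all higher (10.1% of the value table), and with quantile normalization 4, all higher (4.1%).

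In hypoxia 10 of the 11 rose with age, the exception being Mrps26, with a median of 1.3, where 26.3% of the value table rose and its median was -0.50. In normoxia 1 of the 11 rose, Mrpl30, against 18.3% of the value table, and the median was 0.25. With centred arrays all 11 rose in hypoxia, where 38.6% of the value table did. The hypoxic P8 samples are shared between this age comparison and the one that listed 8 of the 11 at P8, where 7 of those 8 had a negative difference.

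Mrpl30, of the large mitochondrial subunit, was at 11.38, 11.75, 11.72, 11.54 and 11.37 in hypoxia at P30, against 10.79, 10.77, 10.70 and 10.79 in normoxia. All hypoxic samples lay above the tightly grouped normoxic ones, and the difference was 0.79 ± 0.25 (SE, adjusted p = 0.861). Its P8 samples were at 9.67 to 10.86 in hypoxia and 8.87 to 10 in normoxia, and hypoxic P8 sample 4, at 10.86, was the 1 that lay above the normoxic P30 samples. Mrpl30 rose with age by 1.3 ± 0.24 (SE) in hypoxia (adjusted p = 0.000449) and by 1.25 ± 0.26 (SE) in normoxia (adjusted p = 0.00474). Mrpl42 had the largest P30 difference of the class, 1.18 ± 0.39 (SE, adjusted p = 0.87), and it rested in part on normoxic sample 5, at 14.34 where the other normoxic samples were at 16.51 to 16.76 and the hypoxic ones at 16.81 to 17.55. Mrpl42 was chosen for that spread after its values were seen.

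Initiation factors were mostly a P8 group: all 18 were in the P8 list and 1, Eif3l, was also in the P30 list. The authors' deposited table gives 13 of the 18 as higher in hypoxia at P8 and 5 as lower. Of 10 with values per sample, 7 were positive and 3 negative at P8, and 3 passed in limma, 1 higher and 2 lower. All 10 were P8-listed, and of the P8-listed probe sets with values 42.2% passed.

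Eif3l, a subunit of the eIF3 complex that holds the small subunit at the messenger RNA, was at 10.31, 10.12, 10.59, 10.98 and 10.41 in hypoxia at P8, against 9.66, 9.94, 9.79 and 9.62 in normoxia. It rose by 0.73 ± 0.20 (SE), or 1.66-fold, with no overlap (limma adjusted p = 0.0375), and 10 of 16 alternatives lost the call, centred arrays and quantile normalization among them. At P30 its hypoxic samples (9.68 to 9.99) were again all above the normoxic ones (9.15 to 9.52), with a difference of 0.53 ± 0.20 (SE, adjusted p = 1).

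Eif5b, the GTPase that joins the ribosomal subunits, went the other way at P8, with 9.23, 9.42, 9.23, 9.37 and 9.0 in hypoxia, against 10.12, 9.82, 9.89 and 10.18 in normoxia. The groups were well apart, and the fall was 0.75 ± 0.19 (SE), or 1.69-fold (limma adjusted p = 0.0298, lost under 8 of 16 alternatives). Eif5b rose by 1.00 ± 0.18 (SE) with age in hypoxia (adjusted p = 0.000472), and its age difference in normoxia was 0.15 ± 0.21 (SE, adjusted p = 1).

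A probe set that covers Eif4a2, an RNA helicase of initiation, together with the small nucleolar RNAs Snord2 and Snora81 in its introns had the lowest adjusted p of the members at P8. It was at 8.12, 7.96, 8.00, 8.20 and 8.59 in hypoxia, against 9.45, 9.19, 9.35 and 8.99 in normoxia. It fell by 1.07 ± 0.21 (SE, adjusted p = 0.00448) with no overlap, and which of its transcripts moved cannot be told from the probe set. At P30 it was at 10.26 to 11.01 in hypoxia and 10.03 to 10.48 in normoxia. It was the 1 member of 54 whose hypoxia effects differed between ages, by 1.42 ± 0.29 (SE, adjusted p = 0.0197).

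With age in hypoxia all 10 initiation factors passed, 3 higher and 7 lower, where 26.3% of the value table was higher and 43.9% lower. In normoxia only the Eif4a2 probe set passed, as higher. The hypoxic P8 samples are shared between the hypoxic age comparison and the P8 comparison that listed all 10. The 3 that rose were the 3 lower in hypoxia at P8, and the 7 that fell were the 7 higher there. Nothing is therefore read from the count of 10. Eif5a, the factor that carries hypusine, fell by 2.33 ± 0.42 (SE) in hypoxia (adjusted p = 0.000386), with signals of 14.50 to 16.00 at P30 and 16.12 to 18.97 at P8. Its difference in normoxia was -0.62 ± 0.47 (SE). Eif4a1, a helicase of the eIF4F cap-binding complex, fell by 1.40 ± 0.22 (SE) in hypoxia (adjusted p = 0.000104), and its difference in normoxia was -0.78 ± 0.25 (SE, adjusted p = 0.0625). Eif5a and Eif4a1 were picked as examples with their values known, and with centred arrays 3 of the 7 falls passed, where 24.3% of the value table fell.

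The elongation factors that carry aminoacyl-tRNA to the ribosome moved in opposite directions with age in both oxygen groups. Eef1a2, the form of mature muscle and neurons, was at 15.25 to 15.47 in hypoxia and 15.07 to 15.94 in normoxia at P30, against 12.30 to 13.69 in hypoxia and 13.16 to 14.79 in normoxia at P8. It rose 4.55-fold in hypoxia (adjusted p = 1.31e-05) and 2.5-fold in normoxia (adjusted p = 0.0135). The difference between the oxygen groups in this rise, 0.87 ± 0.43 (SE) on the log2 scale, did not pass (limma adjusted p = 0.641). Eef1a2 was listed at P8 only, as lower in hypoxia, and the hypoxic P8 samples are shared with the hypoxic age comparison. The normoxic call was lost under 3 of 14 alternatives, with the 2 groups alone, without normoxic P8 sample 13 and without normoxic P30 sample 5 (adjusted p up to 0.0563). At P8 its hypoxia difference was -0.87 ± 0.31 (SE), which did not pass (adjusted p = 0.135), and at P30 it was -0.01 ± 0.31 (SE).

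Eef1a1, the form of most tissues, was at 19.21 to 19.45 in hypoxia and 18.67 to 19.31 in normoxia at P30, against 19.88 to 19.93 in hypoxia and 19.73 to 19.82 in normoxia at P8. In hypoxic P8 samples 4 to 7 it stood at 19.93, the highest value of the table. In each of these samples 1 to 4 probe sets stood at that value. The P8 level in hypoxia may thus be capped, which would make the measured fall there too small. Eef1a1 fell 1.51-fold with age in hypoxia (adjusted p = 0.0145) and 1.66-fold in normoxia (adjusted p = 0.016). The hypoxic log2 difference was -0.592 in the main fit and depended on scaling, at -0.622 to -0.119 over the alternatives. The hypoxic call was lost under 3 of 17 alternatives, with centred arrays, with quantile normalization and without hypoxic P8 samples 4 and 5 together (adjusted p up to 1). The normoxic call was lost under 2 of 14, with the 2 groups alone and without normoxic P30 sample 5 (adjusted p up to 0.119).

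Among kinases and inhibitors of translation, Eif2ak2 had values per sample. It encodes the kinase PKR, which is induced by interferon and, when bound to double-stranded RNA, phosphorylates eIF2 and slows initiation. At P8 it was at 10.37, 11.19, 7.52, 7.93 and 8.81 in hypoxia, against 8.03, 6.74, 7.10 and 6.91 in normoxia. Hypoxic samples 4 and 5 were far above the rest, and samples 6 and 7 lay within the normoxic range. The rise was 1.97 ± 0.55 (SE), 3.92-fold (limma adjusted p = 0.0439), and it was lost without hypoxic sample 4, 5 or 8, among 11 of 16 alternatives.

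The 16 interferon-induced genes with values, of 24 listed, moved with Eif2ak2: all 16 rose at P8, where 15.2% of the value table did. Their mean level was 12.20, 13.36, 7.03, 6.81 and 9.92 in the hypoxic P8 samples in the same order, against 4.89 to 5.74 in normoxia, so samples 4, 5 and 8 were highest in both measures. The interferon response core printed above for Eif2ak2 was found, on either strand, in 3.44% of 32851 promoters of 300 bases. At P30 Eif2ak2 was at 6.05 to 6.84 in hypoxia and 6.35 to 7.46 in normoxia, with overlapping groups.

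Nucleolar members that make ribosomes were few. Nhp2, a protein of the H/ACA particles that guide pseudouridylation of ribosomal RNA, was at 8.64, 8.57, 8.32, 8.54 and 8.49 in hypoxia at P8, against 7.74, 8.02, 7.54 and 6.71 in normoxia. The hypoxic samples were tightly grouped above all normoxic ones, and the rise was 1.01 ± 0.24 (SE), 2.01-fold (limma adjusted p = 0.0199, lost under 5 of 16 alternatives, among them leaving out normoxic sample 24 and both scalings). At P30 Nhp2 averaged 7.89 ± 0.30 in hypoxia (SD, n = 5) and 7.41 ± 0.26 in normoxia (SD, n = 4), with overlap. A probe set shared by Utp14b and Acsl3 also rose at P8, by 1.90 (adjusted p = 0.0115) with no overlap of the groups, and cannot be assigned to either gene.

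Imp3, a protein of the U3 particle that cuts pre-ribosomal RNA, had a P8 difference of -0.66 ± 0.25 (SE), which did not pass (adjusted p = 0.173), with samples of 7.67 to 8.25 in hypoxia and 8.12 to 9.07 in normoxia. Polr1e, a subunit of RNA polymerase I, was at 10.92, 10.12, 9.65, 9.82 and 9.69 in hypoxia at P30, against 9.06, 8.86, 8.80 and 8.96 in normoxia. All hypoxic samples were above the normoxic ones, with a difference of 1.12 ± 0.33 (SE, adjusted p = 0.739). With age Polr1e fell 4.01-fold in normoxia (adjusted p = 0.000944), and its difference in hypoxia was -0.22 ± 0.31 (SE). Polr1e was listed at P30 only, and the P30 samples that listed it are shared with both age comparisons. The effects of hypoxia at the 2 ages differed by 1.78 ± 0.46 (SE), which did not pass (adjusted p = 0.0644).

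**Figure D4:**
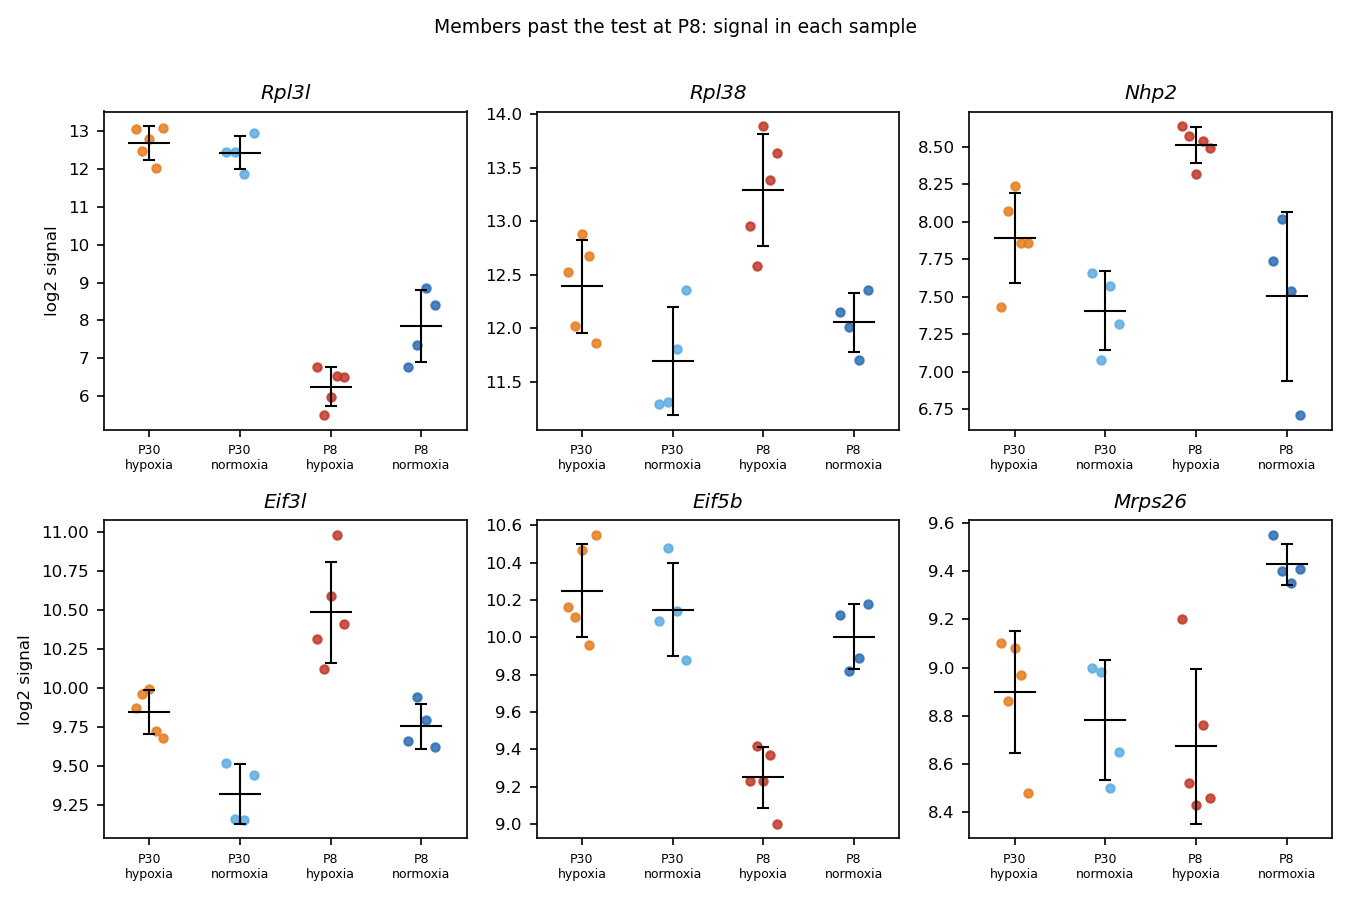
Log2 signal in each sample (points) with the group mean and SD (bars; n = 5 hypoxic and 4 normoxic samples at each age) for the 6 members with 1 gene symbol that passed at P8 and whose P8 groups do not overlap. Rpl38, Nhp2 and Eif3l are higher in hypoxia at P8, Rpl3l, Eif5b and Mrps26 are lower, and the vertical scales differ between panels.

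For 43 members only the authors' group averages and folds were deposited, and no test of their own was run. In the authors' deposited table Mrps18b had the largest fold of them at P8, 3.14 higher in hypoxia (averages of 8.06 in hypoxia and 6.40 in normoxia, q = 0.0988), while most mitochondrial ribosomal proteins listed at P8, 8 of 12, were lower. The authors' deposited table also gives higher P8 averages for Rps6ka2, a kinase of the RSK family (fold 2.61, q = 0.2337), for Eif2ak1, the heme-regulated eIF2 kinase (fold 1.72, q = 0.1473), for Nop14 of the small-subunit processome (fold 2.05, q = 0.1799), for Rps6 (fold 1.48, q = 0.0876) and for Eef2, the translocation factor (fold 1.36, q = 0.11). Eif1, the factor for start codon choice, was lower in the authors' deposited table, with a fold of -1.92 and averages of 17.96 in hypoxia and 18.90 in normoxia (q = 0.1421). Among the others in the authors' deposited table, Mrpl38 (fold 2.01), Rrp12 (1.80), Eif2d (1.61), Eef2kmt (1.55) and Eif3h (1.49) were higher in hypoxia at P8, and Utp23 (-1.52), Eif3f (-1.28), Rrp8 (-1.27) and Mrpl24 (-1.24) were lower, with q-values of 0.1149 to 0.2365.

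At P30 the authors' deposited table gives averages of 14.86 in hypoxia and 13.99 in normoxia for Rpl35 (fold 1.83) and of 12.58 in hypoxia and 11.79 in normoxia for Rps25 (fold 1.72). In the same authors' deposited table, Rpl36al, a paralog of Rpl36a, had a fold of 1.74, Mrpl46 of 1.97, the elongation factor Eef1b2 of 1.57, Polr1c, shared by RNA polymerases I and III, of 1.27 and Nol7 of 1.3. Their q-values were 0.6035 to 0.7078, none under 0.05.

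Other genes of the same pathways were taken from a list of 107 further ribosome biogenesis and translation genes, of which 22 had values. At P8 7 of these rose and 1 fell in hypoxia (15.2% and 5.57% of the value table), and at P30 0 passed. The authors' deposited table lists 28 of the 107 at P8, 17 higher and 11 lower in hypoxia, and 5 at P30, 1 higher and 4 lower. Myc, which drives transcription of ribosome genes, rose to 8.80 ± 0.26 in hypoxia (SD, n = 5) at P8, against 6.62 ± 0.45 in normoxia (SD, n = 4), a difference of 2.19 (limma adjusted p = 0.00248). Mxd1, an antagonist of Myc, rose by 1.21 (adjusted p = 0.00775), and Noc2l, a nucleolar complex protein, by 1.37 (adjusted p = 0.0156). Of 38 symbols for cytosolic aminoacyl-tRNA synthetases 12 were in the P8 list, and the authors' deposited table gives all 12 as higher in hypoxia. Most of the 38 are old and new names of the same genes, so the number of genes searched is well below 38. Values were at hand for 6, of which 4 rose at P8, among them Wars by 3.31 (adjusted p = 0.000642), Kars by 1.32 (adjusted p = 0.00824) and Farsa by 1.48 (adjusted p = 0.0177).

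Markers of other cells moved with hypoxia at P8, where 15.2% of the value table rose and 5.57% fell. Of dividing-cell markers 10 of 14 with values rose, with mean levels of 8.37 to 9.16 in hypoxia against 6.34 to 8.15 in normoxia. Of erythroid markers 4 of 5 rose (8.36 to 9.67 in hypoxia against 5.71 to 8.34 in normoxia), of macrophage markers 5 of 8 (6.53 to 7.74 against 5.14 to 5.91 in normoxia) and of neutrophil markers 3 of 4 (4.85 to 6.86 against 3.58 to 4.48 in normoxia). Of fibroblast and mural markers 2 of 4 fell (12.75 to 13.20 in hypoxia against 14.11 to 14.69 in normoxia), of endothelial markers 2 of 4 rose and 2 fell, and the 1 lymphocyte marker with values, Rag2, fell. At P30 0 of these markers passed, and the share of any of these cells in the members' differences was not tested.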

How the data were processed

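Heart RNA of 18 mouse samples was measured on Clariom S arrays. The authors deposited a table of log2 signals for 4704 probe sets, whose normalization and selection rule were not given in the sources used here. Affymetrix Expression Console, without a version, is named in the submitters' processing notes. Per the file headers, the deposited gene lists (4351 probe sets at P8, 1524 at P30) give group averages as log2 signals, a signed fold (a score, negative where hypoxia is lower), a p-value and a q-value for hypoxia against normoxia, from a test not given there. Members' averages differ from the arithmetic means by up to 0.562.

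Members were matched by symbol, and probe sets with several symbols were counted but not assigned to a gene. Ribosomal protein genes have near-identical pseudogene copies, and which copies a probe set also binds was not analysed here. A model of the log2 values over 4 groups was made with limma 3.58.1 (R 4.3.3), with no block (14 residual and 5.98 prior degrees of freedom). Benjamini-Hochberg adjustment ran over the 22205 tests of the array, a number derived from the lists' ranks, p and q, at a threshold of 0.05. The fit was also run on simulated data with independent noise and few changed probe sets. That setting is simpler than these arrays, so nothing is read from it about the calls. Alternatives were adjustment over the table alone, quantile normalization, arrays centred on medians, no dim probe sets, the compared groups alone, a trended robust fit and leaving out samples. At P30 samples with the same number had correlations of -0.168 to 0.0743 in their deviations from the group means. The labels do not say what a shared number means, and these few correlations cannot tell whether it pairs samples.

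Named members were, in each role, those with the largest statistics past the threshold at P8 or else the single largest, the 4 with the largest statistic for a difference of effects, the 3 that rose most and the 3 that fell most with age in normoxia, and check genes such as Rpl3l. For members with averages only they were the 2 largest rises and falls by the authors' fold in each role and age, and for other lists the 3 largest statistics called at P8. Members, lists and the motif searches were chosen with earlier results of these data known.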

Additional observations from a re-analysis of the deposited data

Results flagged for a closer look

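Single samples stood apart from their group in 2 of 64 groups examined (16 named members in 4 groups), where about 1 in 20 is found by chance. Eef1a1 was at 19.88 in hypoxic P8 sample 8, where the other hypoxic P8 samples were all at 19.93, the highest value in the table, which other probe sets also reached. Rpl22l1 was at 7.17 in hypoxic P8 sample 7, where the others were at 7.80 to 7.89. The hypoxia effect on the probe set of Eif4a2, Snord2 and Snora81 differed between the ages by 1.42 on the log2 scale (P30 minus P8) in the test of that difference.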

How the results depend on the processing

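The count of members called at P8 was 9, and became 26 with adjustment over the value table alone, 14 with centred arrays and 2 with the P8 groups alone, and it ranged from 2 to 9 with single samples left out (2 without normoxic sample 24, 3 without 23, 5 without hypoxic sample 6 or 8). For the difference of effects the count was 1, and became 15 over the table alone, 11 with quantile normalization, 17 with centred arrays, 2 without hypoxic P8 samples 4 and 5 together, and 1 to 5 with single samples left out (5 without normoxic P8 sample 13, 3 without normoxic P30 sample 2). For age in normoxia it was 22, and 14 with the 2 groups alone. Cytosolic ribosomal proteins that fell with age in normoxia were 12, and 7 with the 2 groups alone, with a range of 7 to 11 over single samples left out. Those that fell in hypoxia were 3, and 1 with centred arrays. Those whose effects differed between ages were 0, and became 2 over the table alone, 1 with quantile normalization and 5 with centred arrays. The value table moved as well. At P8, 20.7% of it was called in the main fit, and 6.85% was higher and 17.6% lower with centred arrays. For the difference of effects 5.17% was called in the main fit. With quantile normalization 4.1% was higher and 1.85% lower, and with centred arrays 10.1% and 2.0%. With age in normoxia 18.3% rose and 16.3% fell, and in hypoxia 43.9% fell, or 24.3% with centred arrays. Shares for the other settings are not given here. The cause of these shifts was not tested, beyond the fewer tests or samples in some settings.

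At P30 the count was 0 in every alternative run, and all 30 P30-listed members stayed positive in each. That contrast is the one that listed them. With the replicate block the count at P30 was 0 with 46 of 54 positive, as in the same 8 samples without it. In these 8 samples each number occurs once in each group, so the block cannot change a difference and the equal 46 was fixed in advance. The labels do not say what the shared numbers mean. Directions turned for Eef1a1 at P8 (-0.23 with centred arrays), for Rps15a at P8 (-0.319 to 0.004 over single samples left out, positive without normoxic sample 24) and for Eef1a2 at P30, whose difference was near 0: 0.045 with quantile normalization, 0.15 with centred arrays, -0.117 to 0.173 over single samples left out (0.173 without normoxic sample 5), 0.01 without hypoxic sample 1, 0.028 without hypoxic sample 3, and 0.01 with and without the replicate block. Of the other values of named members over alternatives, 784 kept direction and side of the threshold, 85 lost a call and 25 gained one. The number of arrays limits precision throughout, and signal above background cannot be judged from the deposited values.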

Other observations

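Genes of the amino acid response, which encode transporters and enzymes of amino acid supply and include many targets of the factor ATF4, rose at P8 beside the tRNA synthetases: 7 of 9 with values, of 18 listed, with mean levels of 8.21 to 9.18 in hypoxia against 6.76 to 6.99 in normoxia. Slc7a5, a carrier of large neutral amino acids, rose by 2.86 (limma adjusted p = 6.83e-05), Asns by 2.65 (adjusted p = 0.000185) and Psat1 by 2.39 (adjusted p = 0.0005). At P30 0 of the 9 passed, and in hypoxia all 9 fell with age.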
